A study of Mus musculus with 39 samples.

Results

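The testes of 2-week-old lrKO mice were compared with those of wild-type (WT) mice of the same age. In lrKO a Cyp11a1:Cre transgene was combined with floxed Prkar1a (genotype Cyp11a1:Cre,Prkar1afl/fl). The comparison took all arrays titled for these 2 groups at that age, 4 of lrKO and 8 of WT, which are 12 of the 39 arrays of the series. Total RNA of whole testis was hybridised to Affymetrix GeneChip arrays as biotinylated cDNA, and each array is labelled as a biological replicate. The other lines carried Sf1:Cre,Prkar1afl/fl (prKO) or Amh:Cre,Prkar1afl/fl (srKO), and all groups were sampled again at 2 months. Cyp11a1 marks steroidogenic cells. Leydig cells are those of the testis, so most cells of the organ are not the target of Cre in lrKO. The labels do not name a Cre-only control, and the extraction label names adrenal glands where the others name testis.

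Prkar1a encodes the regulatory subunit type 1 alpha that binds and silences the catalytic subunits of protein kinase A (PKA) until cAMP releases them. In Leydig cells, luteinizing hormone raises cAMP, and PKA then drives cholesterol import and the steroid enzymes. Cyp11a1, which cleaves the cholesterol side chain in mitochondria, makes the first steroid of that pathway.

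Of the changes in lrKO at 2 weeks, the one with the smallest p-value was in the gene next to Cyp11a1 on chromosome 9, Sema7a, and the largest fall was in the cystatin gene Cst9 on chromosome 2. The sequences around their start sites, and around both listed starts of Cyp11a1, are shown because they are the landmarks of these 2 stretches. They are from RefSeq on build GRCm38.p6, run 5′ to 3′ on the plus strand of the chromosome, which is the strand of each of these genes, and cover 250 bases before to 50 bases after the start. Capitals mark the half-site of the cAMP response element, TGACG, or its reverse complement CGTCA.
Sema7a, chr9:57939862-57940161: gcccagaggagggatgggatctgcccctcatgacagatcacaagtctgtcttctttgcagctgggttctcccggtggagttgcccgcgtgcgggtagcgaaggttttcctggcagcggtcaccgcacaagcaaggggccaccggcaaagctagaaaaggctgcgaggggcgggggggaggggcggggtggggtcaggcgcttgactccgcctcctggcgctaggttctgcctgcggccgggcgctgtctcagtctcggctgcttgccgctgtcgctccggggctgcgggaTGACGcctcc
Cyp11a1, first start, chr9:57997774-57998073: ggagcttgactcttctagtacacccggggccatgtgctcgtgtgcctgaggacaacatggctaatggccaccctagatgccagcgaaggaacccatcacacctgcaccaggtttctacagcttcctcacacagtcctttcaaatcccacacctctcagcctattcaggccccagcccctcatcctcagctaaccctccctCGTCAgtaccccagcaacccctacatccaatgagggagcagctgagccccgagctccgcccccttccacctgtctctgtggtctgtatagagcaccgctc
Cyp11a1, second start, chr9:58014702-58015001: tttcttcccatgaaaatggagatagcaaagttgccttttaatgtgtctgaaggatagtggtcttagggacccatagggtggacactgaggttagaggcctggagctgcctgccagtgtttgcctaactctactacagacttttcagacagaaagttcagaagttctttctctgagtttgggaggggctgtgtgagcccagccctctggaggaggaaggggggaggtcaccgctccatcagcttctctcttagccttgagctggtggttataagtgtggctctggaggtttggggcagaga
Cst9, chr2:148834897-148835196: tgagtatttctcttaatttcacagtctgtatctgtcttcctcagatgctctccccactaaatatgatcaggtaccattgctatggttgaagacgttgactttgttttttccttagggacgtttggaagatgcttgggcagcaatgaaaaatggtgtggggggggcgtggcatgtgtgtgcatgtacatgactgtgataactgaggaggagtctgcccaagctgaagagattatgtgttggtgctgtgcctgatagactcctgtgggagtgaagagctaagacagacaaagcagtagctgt

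The half-site was found in the Sema7a window at position 41, counted from the start site, and in the window of the first Cyp11a1 start at position -50 on the opposite strand. On either strand, 20.8% of 32851 RefSeq promoter windows of this length hold it. The full element TGACGTCA (1.79% of windows, each of which also holds the half-site) and the site of steroidogenic factor 1, AAGGTCA (4.72%), were in none of the 4 windows. A match is a string of letters and not a measured binding site.

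Values are log2 intensities, so a difference of 1 is a 2-fold difference. Array medians lay between 5.96 and 6.02 at 2 weeks. WT replicates 1 to 4 and 5 to 8 stood apart: in a fit that held them as separate groups, 1132 of 19007 genes (5.96%) differed between them, and 221 did with only the 8 WT arrays in the fit. The lrKO arrays were closer to the second set, with a median correlation across genes of 0.9903 against 0.9807 for the first, and 0.9918 among themselves. The mean level of 80 small nucleolar RNA genes was 7.97 to 8.28 in WT replicates 1 to 4, 8.34 to 8.47 in 5 to 8 and 8.40 to 8.52 in lrKO. WT replicate 4 lay above the other WT arrays in smooth muscle, endothelial and matrix genes, such as Actg2 (9.20, next highest 7.53). WT replicate 2 lay above them in adipose genes, such as Fabp4 (8.05, next highest 5.60). The part of these differences in the results was not tested, and each named gene called against all 8 WT is also given against both WT sets.

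Genes of testis cells were present. Cst9 and Rhox5 of Sertoli cells and Stra8 of germ cells were at 7.08 or more in each WT and lrKO array. So were Nr5a1 and Cyp11a1, which as genes of steroidogenic cells do not tell testis from adrenal. Of adrenal cortex genes, Cyp21a1 was at 4.26 to 4.64 and Cyp11b1 at 4.63 to 5.02 over WT and lrKO. These are near the filter value of 4.62 below which a gene was not tested. Mrap, on the same list, was well above it, at 6.82 to 7.92. The list's mean level was 6.24 to 6.56 in WT replicates 1 to 4, 6.27 to 6.50 in 5 to 8 and 6.30 to 6.47 in lrKO. Dbh of the adrenal medulla was at 4.05 to 4.64.

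The targeted gene was no lower in lrKO. Prkar1a was at 9.02, 8.98, 9.05 and 9.08 in lrKO replicates 1 to 4 and, in WT, at 8.84 at the lowest, 8.97 at the median and 9.14 at the highest. The groups overlapped, and all 4 lrKO values lay above WT replicates 1 to 4 (at most 8.95) and within or just below 5 to 8 (8.99 to 9.14). The difference from all 8 WT was 0.05 ± 0.07 (SE; limma with Benjamini-Hochberg adjustment, adjusted p = 0.84), from WT replicates 1 to 4 it was 0.15 ± 0.07 (adjusted p = 0.25), and from 5 to 8 it was -0.05 ± 0.07 (adjusted p = 0.98). Prkar1a was higher in lrKO than in prKO by 0.82 (adjusted p = 2.1e-06) and than in srKO by 0.53 (adjusted p = 0.0022). Leydig cells are a minority of the testis, and in RNA of a whole organ fewer cells of a type and less RNA per cell cannot be told apart. Recombination was not measured, and the position of the floxed part within the probe set is not known here.

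Cyp11a1 itself, whose promoter names the Cre, was at 8.94, 8.99, 8.92 and 8.81 in lrKO. WT arrays ran from 8.43 over a median of 9.36 to 9.50, and their sets differed, with 9.33 to 9.50 in replicates 1 to 4 and 8.43 to 9.39 in 5 to 8. The lrKO values lay below the first set and inside the range of the second. Cyp11a1 thus fell against WT replicates 1 to 4 (-0.48 ± 0.09, adjusted p = 0.0087), but its difference from 5 to 8 was 0.13 ± 0.16 (adjusted p = 0.97) and from all 8 WT -0.17 ± 0.18 (adjusted p = 0.76). A second, dimmer Cyp11a1 probe set differed by 0.14 from all 8 WT.

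**Figure D1:**
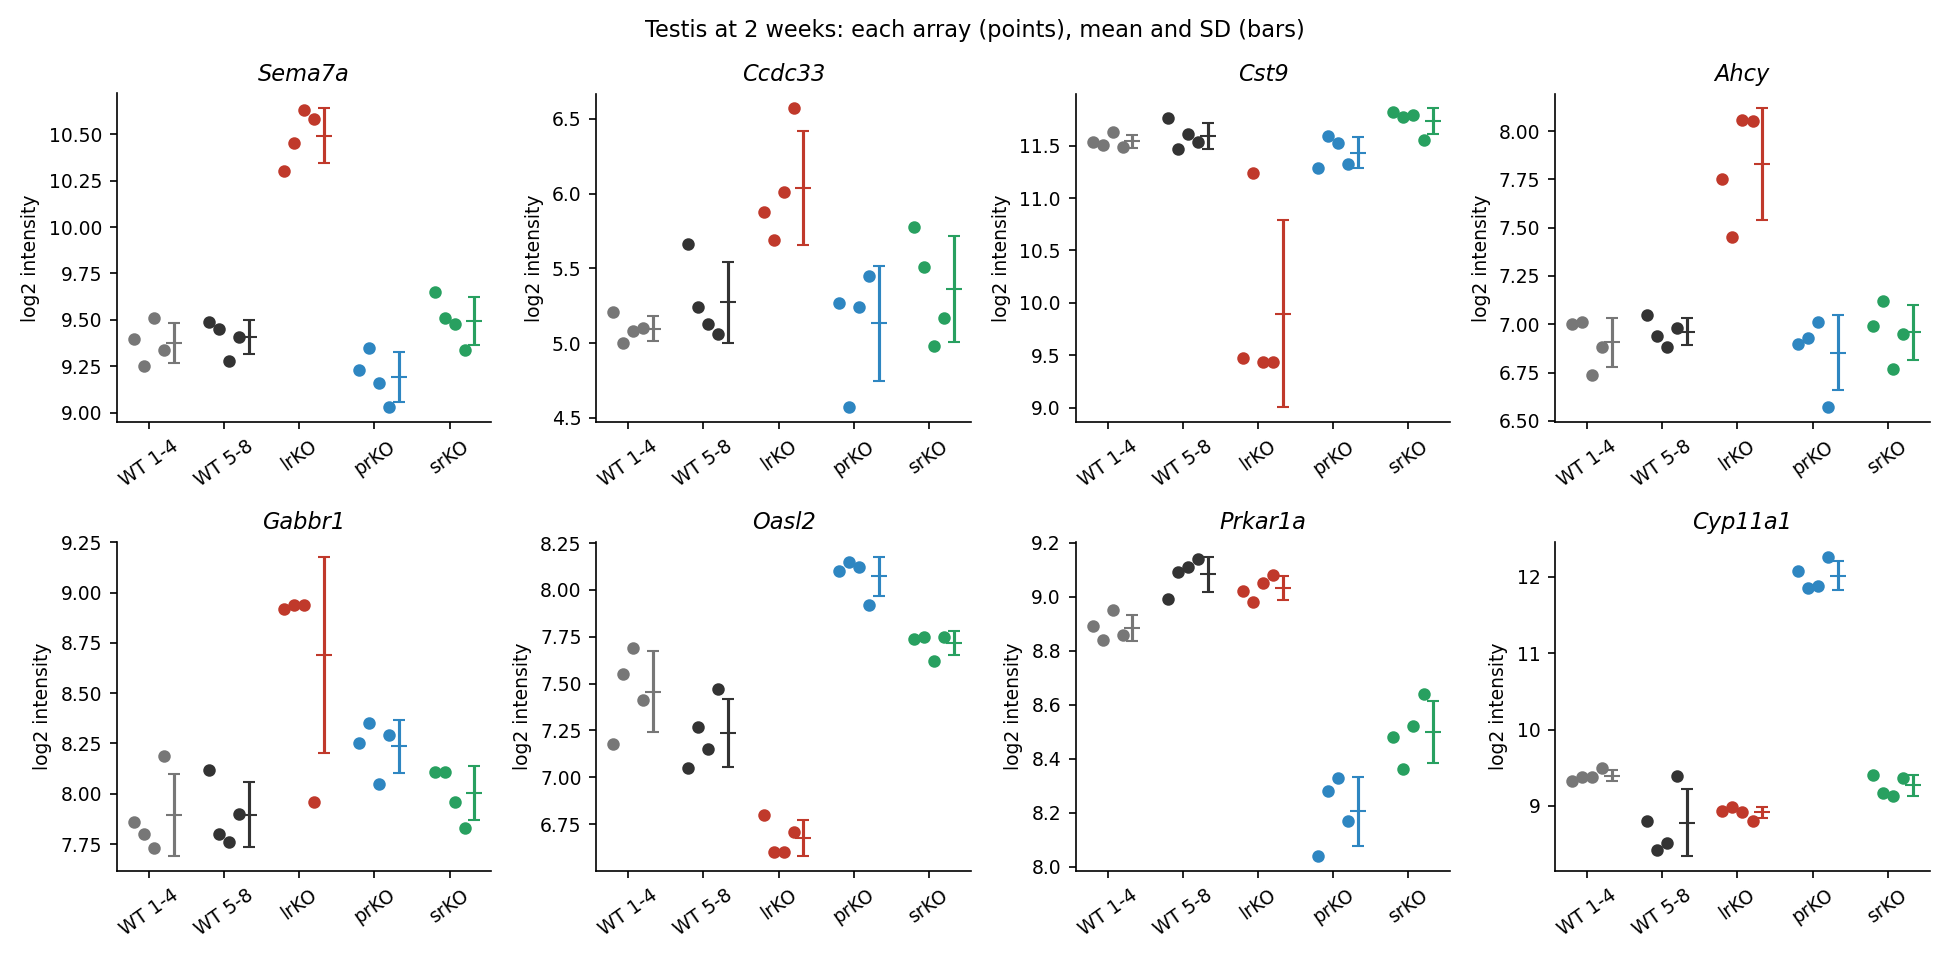
Log2 intensity of 8 genes in each testis array at 2 weeks (points), with the mean and SD of 4 arrays (bars), for WT replicates 1 to 4, WT replicates 5 to 8, lrKO, prKO and srKO. The axes differ between panels and do not start at 0; Sema7a is at 10.30 or more in lrKO only, Cst9 has 1 lrKO array near WT, and Prkar1a is lower in prKO and srKO but not in lrKO.

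Few genes separated lrKO from WT. Against all 8 WT, 19 of 19007 genes passed an adjusted p of 0.05 (percent called 0.1%), 7 higher (0.0368%) and 12 lower (0.0631%) in lrKO, of which 1 and 2 respectively changed at least 2-fold, and 1715 genes (9.02%) had an unadjusted p under 0.05. Against WT replicates 1 to 4 alone the count was 942 (4.96%), of which 333 were higher (1.75%) and 609 lower (3.2%). Against 5 to 8 alone it was 22 (0.116%), of which 13 were higher (0.0684%) and 9 lower (0.0474%). An unadjusted p under 0.05 was reached by 23.1% and 7.14% of genes in these 2 comparisons. All 19 genes were also called against replicates 1 to 4 and 8 of them against 5 to 8. These are subsets of the same arrays, so the 3 comparisons are not independent. In 16 of the 19 genes all 4 lrKO arrays lay outside the range of the 8 WT arrays. This held for 185 of all genes tested (0.973%). The 19 genes were chosen by their differences in these same arrays, so nothing is read from the 16.

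The call count rested on single arrays and on the groups in the fit. It was 3 with only lrKO and WT in the fit (Sema7a, Ahcy and Tssk1), 38 with all 8 groups of both ages, 7, 7, 5 and 9 without lrKO replicate 1, 2, 3 and 4, 8 without WT replicate 3, and 13 to 23 without any other WT array. Sema7a, Cst9, Ahcy and Oasl2 were called without any 1 of the 12 arrays. Ryr2 was lost without lrKO replicate 1, 2 or 4, Frzb without 1, 2 or 3, and Tssk1 without 3. Ahnak2, Ddost, Diaph3, Cabs1, Gm4846 and Naa20 were lost without any 1 of the lrKO arrays. Gabbr1 was lost without 1, 2 or 3, Dynlrb1 and Rhox5 without 1, 3 or 4, and Gpm6a without 2, 3 or 4. The adjusted p of the genes so lost lay between 0.057 and 0.22. Without WT replicate 3, 9 of the 17 named genes were lost (0.055 to 0.077), and without another WT array 3 to 6 were (0.051 to 0.10). Sema7a was called under every one of 25 alternatives run, with a difference between 1.05 and 1.16.

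**Figure D2:**
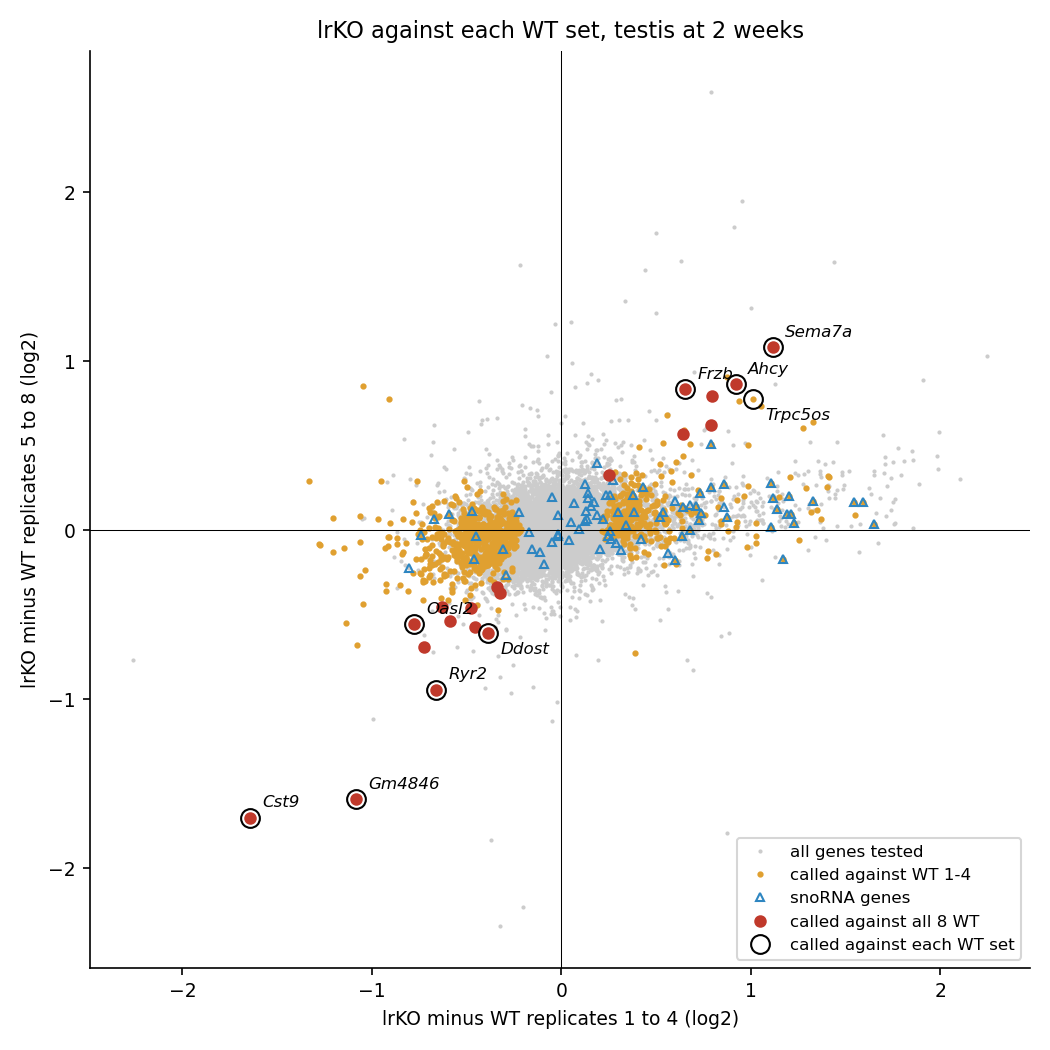
Difference in log2 intensity of lrKO from WT replicates 1 to 4 (horizontal) and from WT replicates 5 to 8 (vertical) for each of 19007 genes at 2 weeks. The 942 genes called against replicates 1 to 4 spread along the horizontal axis, small nucleolar RNA genes among them. The 9 genes (0.0474%) called in the same direction against each set (circled) lie near the diagonal. Both groups were picked by the differences plotted, so nothing is read from where they lie.

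Sema7a encodes a membrane-anchored semaphorin that signals through integrin beta 1 and plexin C1. It was at 10.30, 10.45, 10.63 and 10.58 in lrKO and, in WT, between 9.25 and 9.51 with a median of 9.40. Every lrKO array was thus above every WT array, with group means of 10.49 ± 0.15 (SD, n = 4) and 9.39 ± 0.10 (SD, n = 8). The rise was 2.14-fold (1.10 ± 0.08, adjusted p = 1.5e-07), and was 1.12 (adjusted p = 1.7e-05) and 1.08 (adjusted p = 4.4e-05) against WT replicates 1 to 4 and 5 to 8. Sema7a was also higher in lrKO than in prKO (1.30, adjusted p = 1.4e-08) and srKO (1.00, adjusted p = 8.9e-06). Its receptors did not pass the test, with differences of -0.03 for Itgb1 and 0.00 for Plxnc1. Sema7a was the 1 called gene of 23 tested on the list of semaphorins and Sema7a receptors, and the list's median difference was -0.03, against -0.01 over all genes.

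In the gene order of the GRCm38.p6 annotation, Sema7a is the nearest protein-coding gene on one side of Cyp11a1 and Ccdc33 the nearest on the other. Ccdc33 encodes a coiled-coil protein of the male germ line. It was at 5.88, 5.69, 6.01 and 6.57 in lrKO and between 5.00 and 5.66 in WT, with a median of 5.11. All 4 lrKO arrays were above all 8 WT arrays, the closest being WT replicate 5, which stood apart from the other WT arrays (next highest 5.24). The difference was 0.85 ± 0.18 (adjusted p = 0.075), so it missed the threshold. Ccdc33 was called against WT replicates 1 to 4 (0.94, adjusted p = 0.019) and not against 5 to 8 (0.76, adjusted p = 0.35). Without WT replicate 5, the WT array nearest lrKO, the difference was 0.92 (adjusted p = 0.042), from which nothing is read. A second Ccdc33 probe set, at 4.34 to 4.81, differed by -0.01.

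Of the 10 protein-coding genes on either side of Cyp11a1, 19 of 20 were tested and Sema7a alone was called. Beyond Sema7a and Ccdc33 the differences ran from -0.37 (Cd276, adjusted p = 0.18), at the far end of the stretch, to 0.15 (Ubl7). At 2 months, in other animals, Sema7a was again the only gene of the stretch called. It was at 8.99 to 9.17 in 4 lrKO arrays and 7.78 to 8.17 in 8 WT arrays (1.12 ± 0.13, adjusted p = 9.3e-04), and the difference between its changes at the 2 ages was 0.02 (adjusted p = 0.99). At that age the other lines also lay above every WT array, with prKO at 8.20 to 9.17 (2 of its 3 arrays within the lrKO range) and srKO at 8.27 to 8.60, whereas at 2 weeks prKO was at 9.03 to 9.35 and srKO at 9.34 to 9.65. Ccdc33 was then at 9.62 to 9.76 in lrKO and 8.83 to 9.51 in WT (0.51 ± 0.14, adjusted p = 0.23), again with no overlap between the groups, and prKO (7.81 to 8.57) and srKO (8.05 to 8.57) lay below WT.

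**Figure D3:**
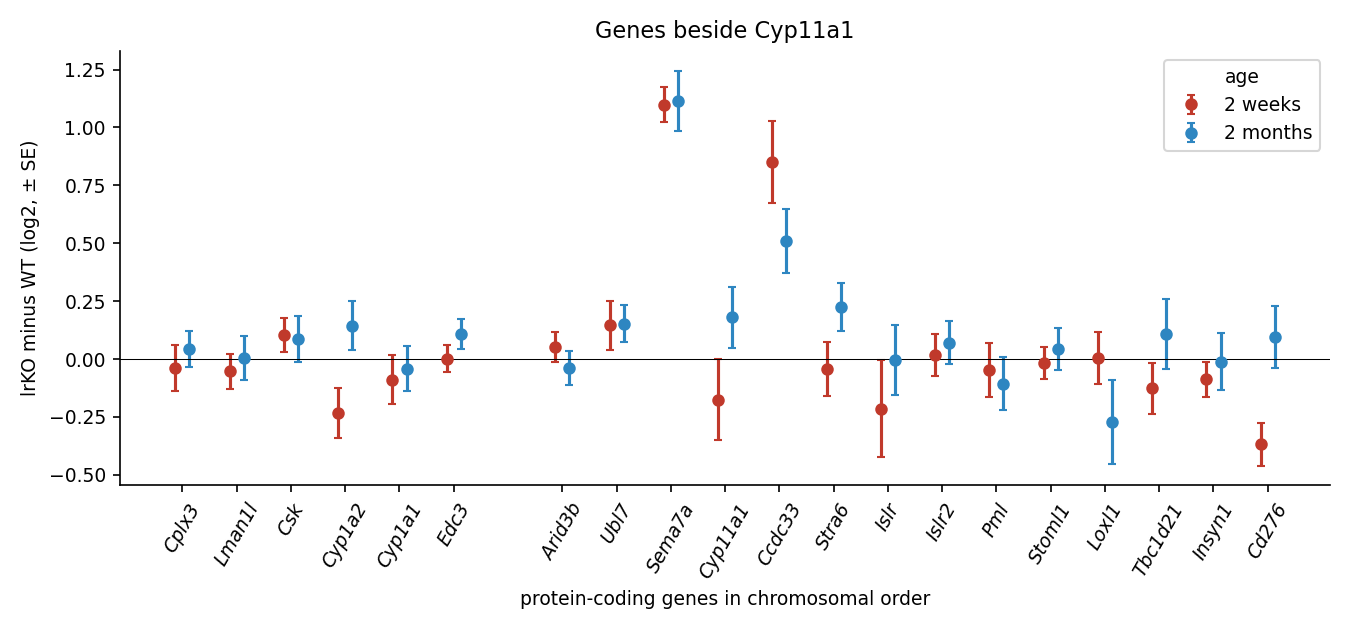
Difference in log2 intensity of lrKO from all 8 WT (± SE) for Cyp11a1 and the tested genes among 10 protein-coding neighbours on each side, in chromosomal order, at 2 weeks (red) and 2 months (blue). Sema7a and Ccdc33, on either side of Cyp11a1, are above 0.5 at both ages, and the other genes lie between -0.37 and 0.23.

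Cst9 encodes a cystatin, a family of protease inhibitors, that Sertoli cells secrete. It was at 9.47, 11.24, 9.44 and 9.44 in lrKO replicates 1 to 4, and between 11.47 and 11.76 in WT with a median of 11.54. All lrKO arrays were below all WT arrays, but replicate 2 was close to WT and stood apart from the other three. The fall was 3.19-fold (-1.67 ± 0.23, adjusted p = 0.0027), and was called against both WT sets (-1.64 and -1.70). Without lrKO replicate 2, the lrKO array nearest WT, the difference was -2.12 (adjusted p = 4.5e-12). Leaving out such an array widens the difference by construction, so nothing is read from that p-value. The prKO arrays were at 11.29 to 11.59 and the srKO arrays at 11.55 to 11.82, and lrKO was lower than prKO by -1.54 (adjusted p = 5.5e-04) and than srKO by -1.84 (adjusted p = 9.8e-04).

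Another 3 genes called at 2 weeks, Naa20, Ahcy and Dynlrb1, are by their symbols on the same chromosome, -23, 113 and 115 protein-coding genes from Cst9, and the stretch from Naa20 to Dynlrb1 holds 139 protein-coding genes, 124 of them tested. This stretch was drawn after the values were seen and its ends are called genes, so nothing is read from the 4 calls in it. Probe positions are not given, and whether the probe set used for Ahcy lies there is uncertain, since its identifier is far from those of the chromosome 2 genes. Ahcy, the enzyme that hydrolyses S-adenosylhomocysteine after methylation reactions, was at 7.75, 7.45, 8.06 and 8.05 in lrKO against 6.74 to 7.05 in WT (median 6.96). The groups did not overlap, and the rise was 1.86-fold (0.89 ± 0.11, adjusted p = 5.5e-04). It was called against both WT sets (0.92 and 0.86). A second Ahcy probe set, with an identifier next to that of the chromosome 2 gene Eif2s2, went the other way by -0.41, with lrKO at 4.35, 4.98, 3.91 and 3.95 and WT at 4.41 to 5.10, and with the average of both the call was lost (0.24, adjusted p = 0.49).

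Naa20, the catalytic subunit of an N-terminal acetyltransferase, was at 7.57, 7.64, 7.47 and 7.31 in lrKO and 7.86 to 8.25 in WT (-0.54 ± 0.10, adjusted p = 0.031). It was called against WT replicates 1 to 4 (-0.63, adjusted p = 0.0054) and not against 5 to 8 (-0.45, adjusted p = 0.18). Dynlrb1, a light chain of the dynein motor, was at 9.77, 10.09, 9.75 and 9.70 in lrKO and 10.19 to 10.49 in WT (-0.47 ± 0.09, adjusted p = 0.037). Its call too held against the first WT set (-0.47, adjusted p = 0.019) and not against the second (-0.46, adjusted p = 0.13). Neither gene overlapped between groups. Eif2s2, a translation initiation factor subunit in the same stretch, was at 7.81 to 8.09 in lrKO and 7.39 to 7.68 in WT (0.38 ± 0.07, adjusted p = 0.053).

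At 2 months, when 35 genes (0.184%) were called in all, 3 genes of the stretch were, all lower in lrKO: Cst9 (-0.51 ± 0.08, adjusted p = 0.0091), its neighbour Cstdc2 (-0.98 ± 0.18, adjusted p = 0.019) and Bpifb5 (-0.70 ± 0.12, adjusted p = 0.012). Low values at that age were not limited to lrKO. Cstdc2 was at 5.12 to 5.56 in lrKO, 4.93 to 5.54 in srKO, 5.77 to 6.22 in prKO and 5.83 to 6.99 in WT. Bpifb5 was at 6.62 to 6.77 in lrKO, 6.31 to 6.99 in prKO, 7.41 to 7.75 in srKO and 7.08 to 7.61 in WT. Cst9 was at 9.79 to 9.92 in lrKO, 10.14 to 10.66 in prKO, 10.34 to 10.53 in srKO and 10.26 to 10.50 in WT. At 2 weeks the differences of Cstdc2 (-0.24, adjusted p = 0.59) and Bpifb5 (-0.11, adjusted p = 0.72) did not pass, and at 2 months those of Ahcy (0.17, adjusted p = 0.63), Naa20 (-0.21, adjusted p = 0.41) and Dynlrb1 (-0.18, adjusted p = 0.52) did not. The fall of Cst9 was smaller at 2 months (difference of changes 1.17, adjusted p = 0.046), and the rise of Ahcy was smaller too (-0.72, adjusted p = 0.014). That difference was called in 0.1% of all genes.

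**Figure D4:**
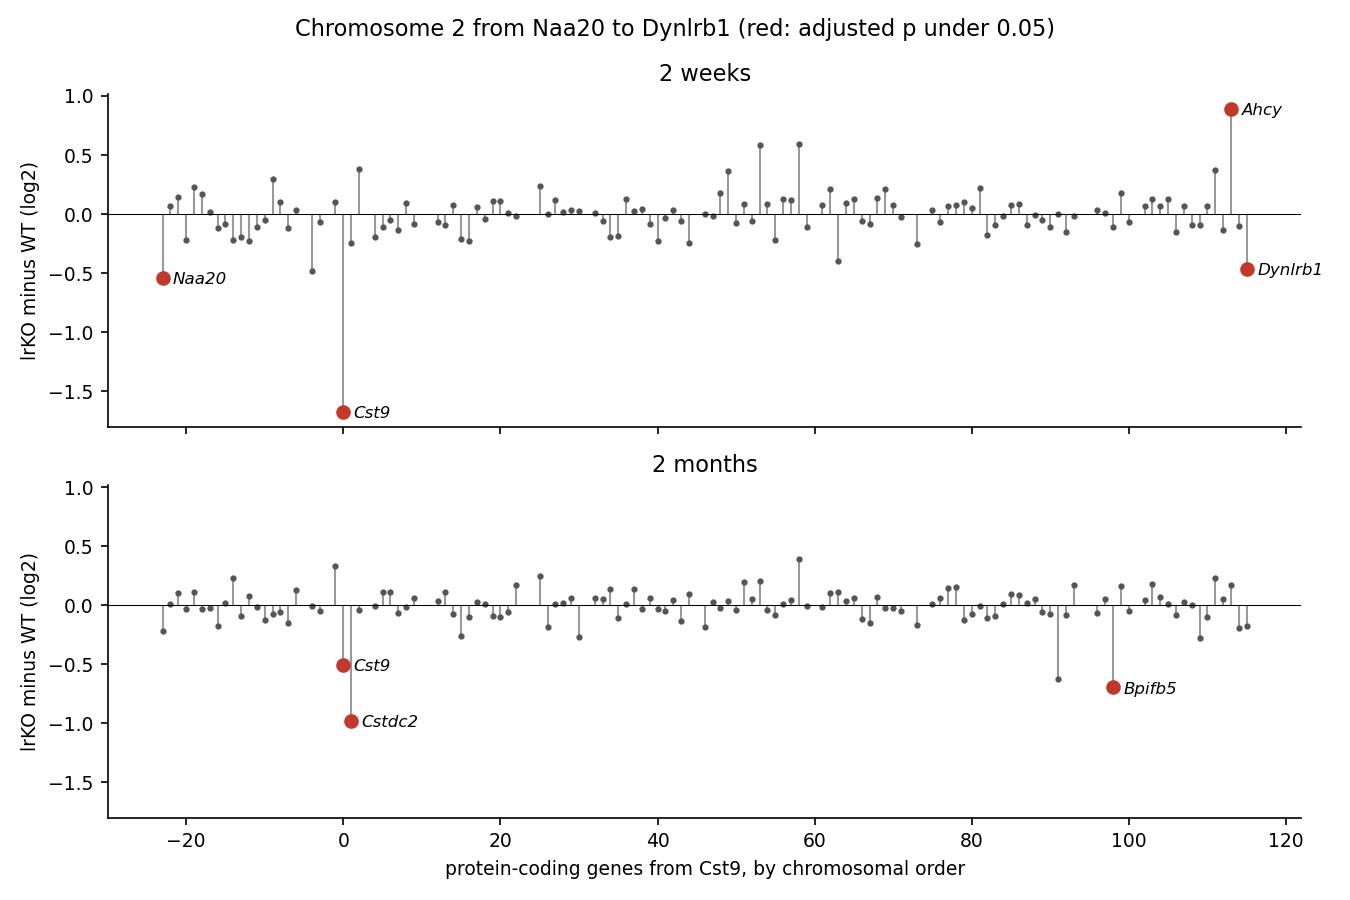
Difference in log2 intensity of lrKO from all 8 WT for the 124 tested protein-coding genes from Naa20 to Dynlrb1 on chromosome 2, by gene order counted from Cst9, at 2 weeks (top) and 2 months (bottom). Genes with an adjusted p under 0.05 are red and named; Cst9 is red at both ages, and the others at 1 age each. Genes are placed by symbol, which for the probe set of Ahcy is uncertain.

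The other called genes were spread over the genome. Oasl2, an interferon-induced gene, was at 6.80, 6.60, 6.60 and 6.71 in lrKO and 7.05 to 7.69 in WT (median 7.34), without overlap. It fell 1.59-fold (-0.67 ± 0.10, adjusted p = 0.0054), by -0.78 and -0.56 against the first and second WT set. The other genes of the interferon list did not pass: 1 of 8 tested genes fell and 0 rose, with Irf7 at -0.17 (adjusted p = 0.55) and Usp18 at -0.15 (adjusted p = 0.67), and the list's median was -0.07. Oasl2 was at 7.92 to 8.15 in prKO and 7.62 to 7.75 in srKO, and lrKO differed from prKO by -1.39 (adjusted p = 9.7e-08) and from srKO by -1.04 (adjusted p = 4.1e-05).

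Ryr2, a calcium release channel of the endoplasmic reticulum, was at 5.48, 5.42, 5.67 and 5.44 in lrKO and 5.97 to 6.63 in WT. It fell 1.74-fold without overlap (-0.80 ± 0.13, adjusted p = 0.013; -0.66 and -0.94 against the WT sets). At 2 months its difference was 0.16, so that the change differed by age (0.96, adjusted p = 0.0013). Ddost, a subunit of the oligosaccharyltransferase that glycosylates proteins, was at 11.41, 11.38, 11.48 and 11.45 in lrKO and 11.53 to 12.15 in WT, and fell 1.41-fold (-0.50 ± 0.09, adjusted p = 0.031; -0.39 and -0.61 against the WT sets, called against both).

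Frzb, a secreted WNT antagonist, was at 9.18, 9.06, 9.26 and 8.85 in lrKO against 8.03 to 8.79 in WT. It rose 1.67-fold, again without overlap (0.74 ± 0.13, adjusted p = 0.031; 0.65 and 0.83 against the WT sets), and was higher than in srKO (0.67) but lower than in prKO (-0.55, adjusted p = 0.018). Gm4846, a predicted gene, was at 3.90 to 4.49 in lrKO, below the filter value of 4.62, and at 4.32 to 6.08 in WT, where replicate 4 stood apart below the rest. It was called against all 8 WT (-1.34 ± 0.26, adjusted p = 0.048) and both sets, and again at 2 months (-0.83, adjusted p = 0.036). Trpc5os, a transcript opposite Trpc5, was called against each WT set (1.01 and 0.77) but not against all 8 together (0.89, adjusted p = 0.11), with lrKO at 6.62 to 7.03 and WT at 4.99 to 6.48. Whether its probe set separates the strands is not known here.

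Rhox5, an androgen-dependent homeobox gene of Sertoli cells, was at 8.07, 7.84, 8.25 and 8.26 in lrKO and 7.08 to 7.72 in WT with a median of 7.43. It rose 1.63-fold without overlap (0.71 ± 0.12, adjusted p = 0.031), was called against WT replicates 1 to 4 (0.79) and not against 5 to 8 (0.62, adjusted p = 0.13). Tssk1, a serine kinase of spermatids, was at 6.12 to 6.26 in lrKO and 5.36 to 5.79 in WT (0.60 ± 0.09, adjusted p = 0.0085). It was called against WT replicates 1 to 4 (0.64, adjusted p = 0.0039) and not against 5 to 8 (0.57, adjusted p = 0.065). Gabbr1, a subunit of the GABA-B receptor, was at 8.92, 8.94, 8.94 and 7.96 in lrKO and 7.73 to 8.19 in WT. Of the lrKO arrays, 3 were above all WT, and replicate 4 lay within WT. Without that replicate, the lrKO array nearest WT, the difference was 1.04 (adjusted p = 2.4e-05), from which nothing is read. With all arrays the difference was 0.79 ± 0.15 (adjusted p = 0.037). It was 0.79 against each WT set, called against replicates 1 to 4 (adjusted p = 0.022) and not against 5 to 8 (adjusted p = 0.12). At 2 months Gabbr1 differed by -0.01, a change by age of -0.80 (adjusted p = 0.045).

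The remaining called genes had differences under 0.8. Gpm6a, a neuronal membrane glycoprotein, fell (-0.71 ± 0.13, adjusted p = 0.037), with lrKO at 5.73 to 6.43 overlapping WT at 6.37 to 7.05; the difference was -0.72 (adjusted p = 0.013) from WT replicates 1 to 4 and -0.69 (adjusted p = 0.089) from 5 to 8. Ahnak2 (-0.34, adjusted p = 0.031) and the formin gene Diaph3 (-0.35, adjusted p = 0.048) also fell, without overlap. Both were called against WT replicates 1 to 4 (adjusted p = 0.013 and 0.018) and not against 5 to 8 (-0.34, adjusted p = 0.099, and -0.37, adjusted p = 0.089). A second Ahnak2 probe set was at 5.85 to 6.02 in lrKO and 6.20 to 6.50 in WT, lower by -0.47. Cabs1, a calcium-binding protein of spermatids, was at 4.74 to 4.82 in lrKO, and its WT arrays, at 4.38 to 4.60, were all below the filter value (0.29, adjusted p = 0.048; 0.25, adjusted p = 0.035, and 0.32, adjusted p = 0.054, against the WT sets). The last 2 of the 19 were predicted genes that fell. Of the 19 genes, 15 were called in the same direction against prKO (16.4% of all genes were called in either direction), 15 against srKO (1.95%) and 12 against both, while 3 (Sema7a, Cst9 and Gm4846) were called in the same direction at 2 months. These comparisons share the lrKO arrays of 2 weeks, except the last.

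Gene lists of testis cell types and pathways were chosen with earlier results of these data known, so their share of calls is not read. They held more calls against WT replicates 1 to 4 than against all WT or 5 to 8. Over all genes too, 4.96% were called against replicates 1 to 4, 0.1% against all WT and 0.116% against 5 to 8. Of 388 tested genes on 27 lists, the called ones were those described above: Rhox5 up and Cst9 down in the 29 Sertoli cell genes, Tssk1 up in the 23 spermatid genes, Oasl2, Ahcy, and Sema7a and Cst9 again on the lists of their families. The medians of the lists lay between -0.19 and 0.12 against all 8 WT.

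In the Leydig cell pathway, 0 of 9 tested steroid enzymes and carriers were called against all 8 WT or WT replicates 5 to 8. Against 1 to 4, 2 fell (Cyp11a1 and Hsd3b1), beside 3.2% of all genes. At an unadjusted p under 0.05, 2, 2 and 3 of the 9 were lower (all WT, 5 to 8 and 1 to 4), and none was higher. Over all genes, 5.16%, 3.03% and 13.6% were lower at that threshold. The median difference was -0.17 against all WT, -0.36 against the first set and -0.04 against the second. The largest difference was that of Cyp17a1, which makes androgen precursors from progesterone. It was at 9.25, 9.40, 8.18 and 7.55 in lrKO and between 8.58 and 10.35 in WT with a median of 9.85, a difference of -1.06 ± 0.34 (adjusted p = 0.35). Replicates 3 and 4 were below all WT arrays and 1 and 2 inside their range. Hsd3b1, which converts pregnenolone, was at 7.58, 7.52, 7.65 and 7.82 against 7.64 to 8.36 in WT (-0.46 ± 0.13, adjusted p = 0.26). Star, which carries cholesterol into mitochondria, differed by -0.28 ± 0.23 (adjusted p = 0.72), and Hsd17b3, the last step to testosterone, by -0.30 ± 0.24 (adjusted p = 0.70). Hsd17b3 did fall in lrKO at 2 months (-1.35 ± 0.19, adjusted p = 0.0017), where it was at 7.81 to 8.40, beside 9.15 to 9.80 in WT, 9.10 to 10.30 in prKO and 10.10 to 10.87 in srKO.

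Of 13 tested Leydig identity genes none was called in the 3 comparisons. At an unadjusted p under 0.05, 1, 5 and 0 of them were lower against all WT, the first and the second set. Over all genes, 5.16%, 13.6% and 3.03% were. Their regulator Nr5a1 differed by 0.07 ± 0.07, Hao2 by -0.42 (adjusted p = 0.45) and Thbs2 by -0.25 (adjusted p = 0.71). Of 18 cholesterol genes none was called against all 8 WT (1 at an unadjusted p under 0.05, beside 9.02% of all genes). Sc5d was at -0.30 (adjusted p = 0.44) and Cyp51 at -0.23. Fdft1, the squalene synthase, fell against WT replicates 1 to 4 (-0.42, adjusted p = 0.038), where it was at 9.53 to 9.75 beside 9.17 to 9.29 in 5 to 8 and 9.18 to 9.30 in lrKO. The 5 tested adrenal cortex genes had a median of 0.02, with Mrap at -0.09; Cyp21a1 differed by 0.02 (adjusted p = 0.98) at 2 weeks and rose at 2 months (1.34 ± 0.26, adjusted p = 0.034), from 4.27 to 4.73 in WT to 5.44 to 6.47 in lrKO, beside 7.08 to 8.46 in prKO and 5.92 to 7.34 in srKO.

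None of 8 tested PKA subunits and inhibitors was called in any of the 3 comparisons, and at an unadjusted p under 0.05, 2, 6 and 2 were lower, beside 5.16%, 13.6% and 3.03% of all genes. Prkar2b, the type 2 beta regulatory subunit, was at 9.25, 9.37, 8.79 and 8.60 in lrKO and 9.14 to 9.67 in WT (-0.44 ± 0.12, adjusted p = 0.20), with replicates 3 and 4 below all WT. Prkar2a differed by -0.20, and the kinase inhibitor genes Pkia by -0.26 and Pkib by -0.25. Of 23 cAMP response genes none was called or had an unadjusted p under 0.05 against all WT, with Pde7b at -0.38 (adjusted p = 0.59) and Sik1 at -0.24 (adjusted p = 0.56). Against WT replicates 1 to 4, 1 of the 23 rose and 2 fell, beside 1.75% and 3.2% of all genes. Pde4b, a cAMP phosphodiesterase, fell against that set (-0.39, adjusted p = 0.027) and differed from 5 to 8 by -0.04. Ppargc1a fell too (-0.46, adjusted p = 0.0495). Pde8a, another cAMP phosphodiesterase, rose against the first set (0.42, adjusted p = 0.030) and differed from 5 to 8 by -0.03.

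**Figure D5:**
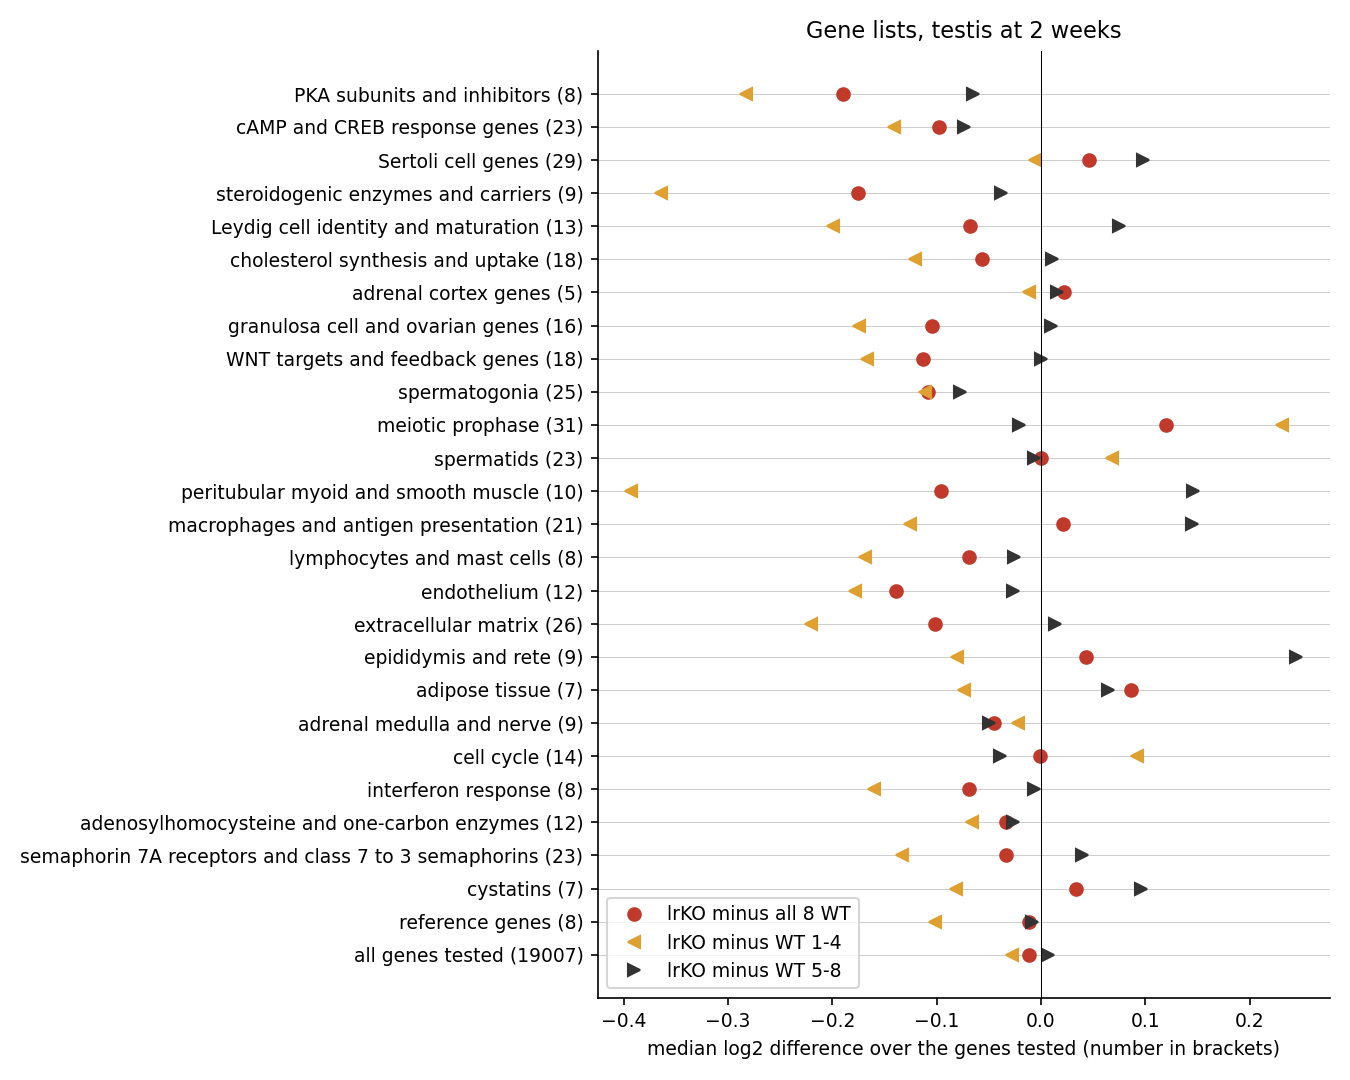
Median log2 difference of lrKO from all 8 WT, WT replicates 1 to 4 and WT replicates 5 to 8 at 2 weeks, for 26 gene lists and all 19007 genes, with the number of genes tested in brackets. Myoid and steroid lists lie at -0.39 and -0.36 against the first WT set and at 0.15 and -0.04 against the second.

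Among Sertoli cell genes other than Cst9 and Rhox5, Tsx was at 10.98 to 11.07 in lrKO and 9.48 to 11.41 in WT (0.54, adjusted p = 0.56), and Kitl, the ligand of the germ cell receptor Kit, differed by -0.25 (adjusted p = 0.55). Cst3, the broadly expressed cystatin C gene, was at 9.72 to 9.89 in lrKO and 9.13 to 9.62 in WT. It did not overlap and missed the threshold (0.38 ± 0.08, adjusted p = 0.075). It passed without WT replicate 7 (0.41, adjusted p = 0.042), the WT array nearest lrKO, from which nothing is read. A second Cst3 probe set, at 6.81 to 7.38, differed by 0.05. Against WT replicates 1 to 4 the first Cst3 probe set rose (0.49, adjusted p = 0.0035), whereas Cst9 fell.

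Of 18 tested genes on the WNT list and 16 on the ovarian list none was called against all WT. The WNT list does not hold Frzb, the called WNT antagonist that rose. An unadjusted p under 0.05 was reached by 2 and 4 genes of these lists, beside 9.02% of all genes. Against the first WT set 2 of each list fell, beside 3.2% of all genes. Sfrp1, a secreted WNT antagonist, was at 8.71, 8.56, 8.50 and 8.55 in lrKO and 8.98 to 10.14 in WT with a median of 9.40. The groups did not overlap, yet it missed the threshold against all WT (-0.84 ± 0.17, adjusted p = 0.053) and against replicates 5 to 8 (-0.55, adjusted p = 0.072), and fell against 1 to 4 (-1.14, adjusted p = 8.3e-04). Without WT replicate 4, 6, 7 or 8 it was called against the remaining WT arrays (-0.74 to -0.91, adjusted p between 0.032 and 0.045). Replicates 6, 7 and 8 are the WT arrays nearest lrKO, so nothing is read from the calls without them. The WNT amplifier Rspo1 (-0.63, adjusted p = 0.001) and the ligand Wnt4 (-0.52, adjusted p = 0.017) also fell against replicates 1 to 4, and differed from 5 to 8 by -0.17 each (adjusted p = 0.71 and 0.56). The WNT target Nkd1 differed from all WT by -0.37 (adjusted p = 0.49).

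In germ cells, Stra8, the gene that retinoic acid induces before meiosis, was at 8.83, 8.77, 9.01 and 8.87 in lrKO and 8.93 to 9.57 in WT (-0.46 ± 0.11, adjusted p = 0.11). It fell against WT replicates 1 to 4 (-0.58, adjusted p = 0.0038) and overlapped 5 to 8 (-0.35, adjusted p = 0.51). Without WT replicate 6, the lowest WT array, it was called against the other 7 (-0.52, adjusted p = 0.045), from which nothing is read. Of the 31 meiotic prophase genes tested, 1 rose and 1 fell against 1 to 4, beside 1.75% and 3.2% of all genes. The gene that fell was the meiotic cohesin Rec8 (-0.51, adjusted p = 0.019). In that comparison 28 of the 31 had a positive difference, beside 43.5% of all genes. Of 25 spermatogonial genes none was called against all WT. An unadjusted p under 0.05 was reached by 6, beside 9.02% of all genes, and 5 of them were lower, beside 5.16%. Etv5 differed by 0.33 (adjusted p = 0.40) and Gfra1 by -0.31 (adjusted p = 0.64). Of 31 meiotic prophase genes none was called either (1 at an unadjusted p under 0.05, lower, beside 5.16% of all genes). A positive difference was seen in 27 (46.4% of all genes had one), with a median of 0.12.

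The median of the meiotic genes was 0.23 against the first WT set and -0.02 against the second. Piwil1, a small-RNA-binding protein of pachytene spermatocytes, was at 9.53 to 10.27 in lrKO and 6.66 to 10.28 in WT, where replicates 1, 4 and 5 were at 6.80, 6.71 and 6.66. Ldhc, a lactate dehydrogenase of germ cells, was at 6.52, 6.59 and 6.50 in those 3 WT arrays and 8.15 or more in all others, lrKO included. Their differences from all WT were 1.07 ± 0.74 (adjusted p = 0.67) and 1.00 ± 0.64 (adjusted p = 0.65), within the spread of WT. The acrosomal protease Acr differed by 0.42 (adjusted p = 0.72).

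The differences in markers of other cell types depended on the WT set. Each of 10 peritubular myoid genes was lower in lrKO than in WT replicates 1 to 4 and higher than in 5 to 8. Mean levels were 8.487 to 8.647 in lrKO, 8.535 to 9.927 in the first set and 8.338 to 8.485 in the second. None was called, and 0, 2 and 1 had an unadjusted p under 0.05 against all WT, the first and the second set. Over all genes the shares were 9.02%, 23.1% and 7.14%. Myl9, a smooth muscle light chain, differed by -0.21 and Actg2 by -0.23 from all WT. The matrix gene Dpt fell against WT replicates 1 to 4 (-1.28, adjusted p = 0.04) and differed by -0.08 from 5 to 8, and Lum did not pass either (-0.76 and -0.02). Of 12 endothelial genes 1, Kdr, fell against 1 to 4 (-0.50, adjusted p = 0.033), beside 3.2% of all genes. Emcn did not (-0.73, adjusted p = 0.11). At an unadjusted p under 0.05, 4 of the 12 were lower than 1 to 4, beside 13.6% of all genes, and 1 was higher.

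None of 21 macrophage genes was called. An unadjusted p under 0.05 was reached by 0, 6 and 6 of them against all WT, the first and the second set. Over all genes the shares were 9.02%, 23.1% and 7.14%. Of the 21, 17 were above WT replicates 5 to 8 and 5 above 1 to 4 (52.4% and 43.5% of all genes were). Examples are Folr2 (0.47 and -0.12) and C1qb (0.41 and -0.13). Lymphocyte, epididymal, adipose and nerve lists had no call in any of the 3 comparisons. Their largest differences from all WT were in Cd3e (-0.51, adjusted p = 0.56), Spink8 (1.69, adjusted p = 0.67), Car3 (0.59, adjusted p = 0.79) and Tubb3 (0.26, adjusted p = 0.55). Spink8, an epididymal protease inhibitor, was at 9.41, 9.50, 8.58 and 4.86 in lrKO and 4.51 to 11.15 in WT, so it varied widely in both groups.

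Of 14 cell cycle genes none was called against all WT (1 at an unadjusted p under 0.05, beside 9.02% of all genes). Against WT replicates 1 to 4, 0 of the 14 rose and 2 fell, beside 1.75% and 3.2% of all genes. These 2 were Ccna2 (-0.65, adjusted p = 0.014) and Aurkb (-0.46, adjusted p = 0.041), while Ccnb2 differed by 0.42 (adjusted p = 0.15). In the one-carbon list, Cth differed by -0.10 and Cbs by -0.09 beside the rise of Ahcy. Among the semaphorins, Sema3d differed by -0.29 (adjusted p = 0.72) and Sema6c by 0.22 (adjusted p = 0.47). The 8 reference genes had a median of -0.01 against all WT, with Sdha at 0.16 (adjusted p = 0.43) and B2m at -0.43 (adjusted p = 0.35). B2m, which is also a gene of antigen presentation, fell against WT replicates 1 to 4 (-0.69, adjusted p = 0.006).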

How the data were processed

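The authors deposited 1 table of log2 intensities, made with RMA per the submitters' processing notes, in a version and with an array annotation not given in the sources used here. Of 41345 probe sets, 23521 had 1 gene symbol, 1814 several and 16010 none listed, and only the first were used. For 1082 of 22180 genes the probe set with the highest mean was taken from several. A gene entered the tests if its mean in any of the 8 groups was above 4.62, the 25th percentile of the table, and 19007 genes did. One model of the 4 genotypes at 2 weeks was fitted with limma 3.58.1 (lmFit, eBayes) in R 4.3.3; p-values are two-sided and Benjamini-Hochberg adjusted over the 19007 genes, with a threshold of 0.05. Fits with WT replicates 1 to 4 or 5 to 8 alone followed, and the code was tested on simulated data. The number of arrays limits the precision, and p-values measure the spread between these arrays.

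The members and the gene lists were chosen with earlier results of these data known. Named genes are Prkar1a, Cyp11a1, the genes called at 2 weeks or against both WT sets, the neighbours of Cyp11a1 called, and up to 4 genes per list with the largest differences; predicted genes were counted, and Gm4846 was named after its values were seen. Also named after their values were seen are Ccdc33, Cd276, Ubl7, Eif2s2, Cstdc2, Bpifb5 and genes of lists given as examples. Other settings tried concern the filter, the probe set of a gene, normalization, weights, the groups in the fit and each array left out.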

Additional observations from a re-analysis of the deposited data

Results flagged for a closer look

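In groups of 4 or 8 arrays, an array was picked out where its gap to the nearest of the others took most of the group's range (Dixon's 95% value), which chance does in about 1 in 20 groups. This was so in 23 arrays of 172 groups examined over the named genes at 2 weeks. WT replicate 4 accounts for 10 of them. It was high in Nkd1 (8.30, nearest 7.48), Actg2 (9.20, nearest 7.53), Myl9 (11.29, nearest 10.52), Kdr (8.67, nearest 8.25), Emcn (8.16, nearest 6.95), Lum (8.85, nearest 7.61), Cth (7.57, nearest 6.65) and Sema3d (6.48, nearest 5.06). It was low in Gm4846 (4.32, nearest 5.34) and Ddost (11.53, nearest 11.87).

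WT replicate 2 was high in the adipose genes Car3 (9.58, nearest 6.82) and Fabp4 (8.05, nearest 5.60). WT replicate 5 was high in Ccdc33 (5.66), WT replicate 6 low in the steroid enzyme Hsd3b1 (7.64, nearest 8.04), and WT replicate 1 high in Pkib (4.74).

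Among the lrKO arrays, replicate 2 was high in Cst9 (11.24, nearest 9.47) and replicate 4 low in Gabbr1 (7.96, nearest 8.92) and Hsd17b3 (7.51, nearest 8.15). Replicate 4 was high in Piwil1 (10.27, nearest 9.65) and Tsx (11.07, nearest 10.99), replicate 1 low in Nr5a1 (8.45), and replicate 3 low in Pkib (4.09) and high in Fdft1 (9.30).

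The change in lrKO differed between the ages, by the test of the difference of changes (2 months minus 2 weeks, limma with adjustment over all genes), in Cst9 (1.17, adjusted p = 0.046), Ryr2 (0.96, adjusted p = 0.0013), Ahcy (-0.72, adjusted p = 0.014) and Gabbr1 (-0.80, adjusted p = 0.045). Over all genes 19 passed this test (0.1%).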

How the results depend on the processing

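The 19 calls against all 8 WT became 37 with array weights, 3 with only the 2 groups in the fit, 38 with all 8 groups, 583 with the replicate block and 942 with WT replicates 1 to 4 alone; without 1 array they ranged from 5 to 23. The other settings gave 13 to 25. In these the share of higher genes moved from 36.8% to 31.6% with quantile normalization again, 41.2% after centring and 44.4% with no filter. With WT replicates 5 to 8 alone it was 59.1%. Against WT replicates 1 to 4, 942 calls became 353 with only the 2 groups and 583 with the replicate block, which leaves WT replicates 5 to 8 without weight, and 399 to 1832 without 1 array (1832 without WT replicate 2, 496 and 562 without WT replicates 1 and 4, and 545, 582, 488 and 399 without lrKO replicates 1 to 4). Against WT replicates 5 to 8, 22 calls became 8 with only the 2 groups, 102 with array weights and 9 to 20 without 1 array (10 and 9 without WT replicates 6 and 7, and 13, 12 and 13 without lrKO replicates 1, 2 and 4). At 2 months 35 calls became 54 with the replicate block, 133 against WT replicates 1 to 4 and 22 against 5 to 8, and the 1132 genes that differed between the WT sets became 221 with only WT in the fit; the last 3 settings were chosen after seeing the data. Same-numbered arrays of lrKO and WT did not deviate together (correlations 0.03, -0.29, -0.14 and -0.43). With prKO the correlations were -0.14 to -0.07 and with srKO -0.03 to 0.44. So few arrays cannot settle whether the numbers pair them. The cause of these shifts was not tested. None of the 17 named called genes turned its direction under any of the 25 alternatives run on them. For Ahcy this could not show a turn between probe sets, since no alternative took its second probe set by itself. The alternatives gave Ahcy differences of 0.24 to 1.02, whereas the second probe set differed by -0.41 from all 8 WT. The direction of Ahcy thus depends on the probe set. Arrays give no read depth, and the WT arrays of Cabs1 and the lrKO arrays of Gm4846 lie below the filter value of 4.62.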
